A study of Mus musculus with 5 samples.

Results

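The response of the high-injury Cldn4 knockout mouse lung to mechanical ventilation was examined by comparing ventilated knockout lungs that had more injury than ventilated wild type lungs (KO_VILIhigh) with unventilated knockout lungs (KO_noVILI). The study profiled whole lungs by RNA sequencing in 5 groups, all on a mixed 129S6, C57BL/6 and BALB/c background. Besides these 2 groups they were ventilated knockouts injured about as much as wild type (KO_VILIlow), ventilated wild type (WT_VILI) and unventilated wild type (WT_noVILI). Knockout mice lack Cldn4, the gene of the epithelial tight junction protein claudin-4, and ventilated animals were exposed to a pressure of 40 cmH2O for 2 h, while unventilated lungs were harvested directly. The design text gives duplicates, 2 libraries per group, and the data used here are the authors' comparison tables, so no value per library, depth or replicate spread can be given. Nothing says whether the 2 libraries came from separate animals, so the p-values may measure technical spread only. Both ventilated knockout groups were formed by the injury of the animals.

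No deposited table holds this comparison. It was rebuilt gene by gene as the log2 fold change of WT_VILI over WT_noVILI plus that of KO_VILIhigh over WT_VILI minus that of KO_noVILI over WT_noVILI, so that both wild type groups cancel. A gene belonged to the set when its mean abundance was at least 1 on the tables' log2 CPM scale (reads counted per gene, scaled to library size) in all 3 tables and it did not lie on X or Y. This left 12953 of 21590 genes, and 429 X- or Y-linked genes that met the minimum were left out. The member nearest the minimum had a lowest mean abundance of 1.0162, and the nearest gene outside 0.9948. A standard error (SE) was read from each deposited fold and p, the 3 variances were summed, and genes past a Benjamini-Hochberg adjusted p of 0.05 over all genes tested were called; this is named the summed test below. It could be computed for 12116 members, and 837 had a deposited fold of exactly 0 or a p of 1 in a table. Levels are given as CPM rebuilt from fold change and mean abundance, and the ratio of 2 levels can differ slightly from the summed fold. The KO_VILIhigh table was read against WT_VILI, which its values match. Reading it against WT_noVILI would turn the direction of the response of 11 genes named below, among them Klf2, Adrb3, Foxj1, Sesn2 and Angptl7.

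High-pressure ventilation overstretches alveoli and small airways. Stretched lung cells open calcium channels, release growth factors and activate MAP kinases, which act on serum response factor and its partners and on CREB to switch on immediate early genes such as Egr1 and Fos without new protein synthesis. NF-kB then drives cytokines and neutrophil-attracting chemokines, while YAP, NRF2 and glucocorticoid signals add matrix, antioxidant and metabolic genes. Claudin-4 is itself induced in injured alveolar epithelium, where it limits the flow of ions between cells.

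Cldn4 stood at 0.122, 0.0212 and 0.140 CPM in KO_VILIhigh, KO_VILIlow and KO_noVILI, against 139.7 CPM in WT_VILI and 8.98 CPM in WT_noVILI. All knockout levels lie near the lower limit of what can be estimated, and no fold between them is printed. The X-linked transcript Xist stood at 2.56 CPM in KO_VILIhigh, 4.08 CPM in KO_VILIlow, 505 CPM in KO_noVILI, 6.13 CPM in WT_VILI and 889.6 CPM in WT_noVILI. The Y-linked gene Ddx3y stood at 90.7 CPM in KO_VILIhigh, 107 CPM in KO_VILIlow, 0.421 CPM in KO_noVILI, 115 CPM in WT_VILI and 0.0984 CPM in WT_noVILI. The sex of the animals and ventilation therefore cannot be told apart between KO_VILIhigh and KO_noVILI or between WT_VILI and WT_noVILI, while KO_VILIhigh and KO_VILIlow had like levels of both genes. The lung epithelial markers Sftpb, a surfactant protein, and Ager stood at 3369 and 1921 CPM in KO_VILIhigh and at 3642 and 1599.9 CPM in KO_noVILI.

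The summed test called 472 of 12116 genes (3.90%), of which 304 (2.51%) were higher in KO_VILIhigh and 168 (1.39%) were lower. At an unadjusted p under 0.05 there were 1419 genes. The summed test still counts the variance of the wild type groups that cancel, and with it left out 997 genes were called higher and 1085 lower. Over all genes tested the median log2 fold change was -0.03, the central 90% ran from -0.87 to 0.98, and the median SE was 0.37. On the log2 scale 131 of the 304 higher genes changed by at least 2, against 30 of the 168 lower ones, and 50 against 3 changed by at least 3. Genes called higher had a median level of 117 CPM in KO_VILIhigh and 32.2 CPM in KO_noVILI, and genes called lower had one of 28.6 CPM in KO_VILIhigh and 78.9 CPM in KO_noVILI. Of the called genes, 24 were called in none of the 3 deposited tables, 15 of them higher and 9 lower. The 24 include the gap junction gene Gja1 at 1.42, the actin crosslinker Flnc at 2.49 and the leukaemia inhibitory factor receptor Lifr at -1.18.

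**Figure D1:**
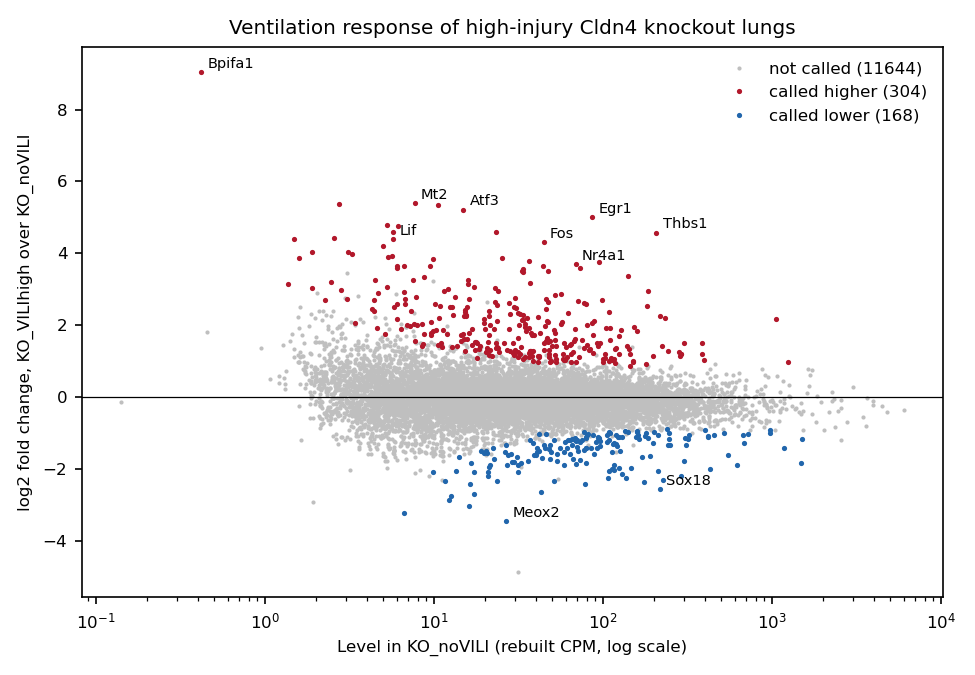
Log2 fold change of KO_VILIhigh over KO_noVILI (y axis) against the rebuilt level in KO_noVILI (x axis, CPM, log scale) for the 12116 genes tested. Red points are the 304 genes called higher, blue points the 168 called lower and grey points the others. The red points reach 9.05 for Bpifa1, while among blue points the lowest is Meox2 at -3.45.

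The 10 largest called rises were in Bpifa1, Mt2, Apold1, Fosb, Atf3, Egr1, Has1, Areg, Sfn and Ptgs2. Bpifa1, a secreted airway defence protein, had the largest value, 9.05 ± 1.48 (SE), but its KO_noVILI level was 0.417 CPM and the fold is a fitted value. Its levels were 191 CPM in KO_VILIhigh, 37.8 CPM in KO_VILIlow, 17.0 CPM in WT_VILI and 3.49 CPM in WT_noVILI. The metallothionein gene Mt2, whose metal-binding product is induced by metals and glucocorticoids, had 314 CPM in KO_VILIhigh and 7.66 CPM in KO_noVILI, a change of 5.39 ± 0.53. Apold1, an immediate early gene of endothelium, had 107 CPM in KO_VILIhigh and 2.73 CPM in KO_noVILI and changed by 5.36 ± 0.52. Has1, which makes hyaluronan, had 140.1 CPM in KO_VILIhigh and 5.23 CPM in KO_noVILI, a change of 4.79 ± 0.81. Sfn, the epithelial adaptor 14-3-3 sigma, had 136 CPM in KO_VILIhigh and 5.74 CPM in KO_noVILI, a change of 4.60 ± 0.47. The summed-test adjusted p of these 5 genes ran up to 3.45e-07.

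The 10 largest called falls were in Meox2, Cntn4, Shisa2, Cbx2, Cml3, Adrb3, Sox18, Edn1, Zfp760 and Tcf21. Meox2, Tcf21 and Sox18 encode transcription factors that keep cells in a resting or specialised state. Meox2, a homeobox factor of mesenchyme and quiescent vessels, had 2.42 CPM in KO_VILIhigh and 26.7 CPM in KO_noVILI, and Tcf21, a factor of lung fibroblasts, had 32.8 CPM in KO_VILIhigh and 175 CPM in KO_noVILI. Sox18, a factor of endothelium, had 35.8 CPM in KO_VILIhigh and 217 CPM in KO_noVILI, and Edn1, the vasoconstrictor peptide endothelin-1, had 13.9 CPM in KO_VILIhigh and 78.6 CPM in KO_noVILI. The log2 fold changes were -3.45 ± 0.66, -2.37 ± 0.38, -2.55 ± 0.40 and -2.43 ± 0.45 in that order. In WT_VILI over WT_noVILI the authors' deposited table gave -2.66, -2.16, -2.23 and -1.82 for these 4 genes. Cntn4, a neuronal adhesion molecule, changed by -3.23 in the knockout comparison (adjusted p = 0.0477, summed test), with 0.696 CPM in KO_VILIhigh and 6.66 CPM in KO_noVILI. In wild type it rose by 0.34 in the authors' deposited table and was not called.

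**Figure D2:**
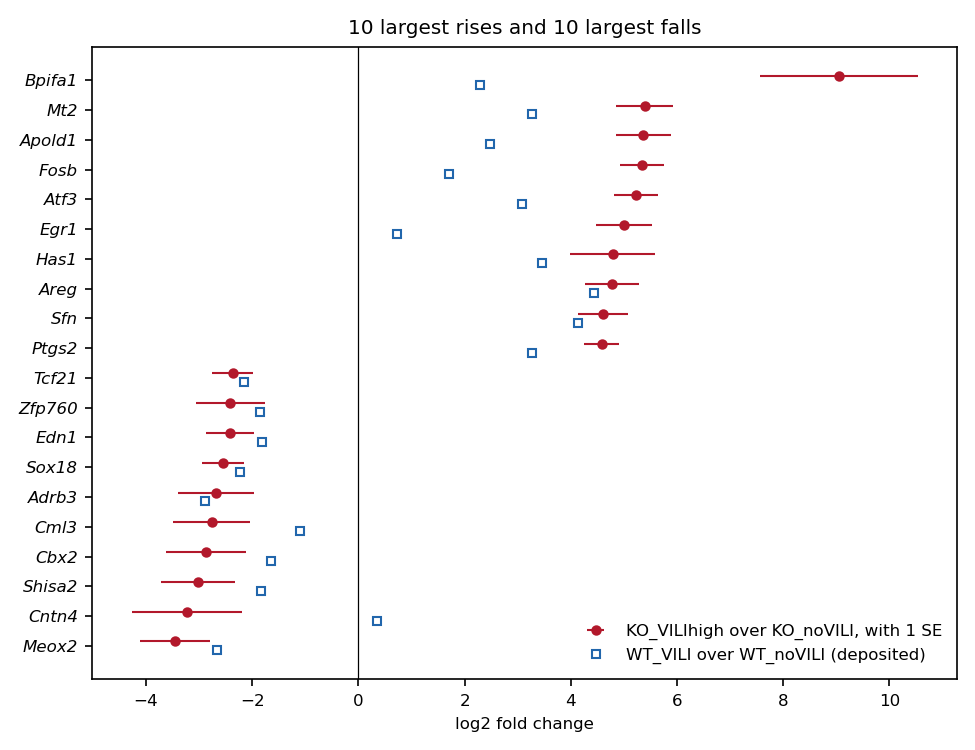
Log2 fold changes (x axis) of the 10 genes with the largest called rises and the 10 with the largest called falls. Red circles give KO_VILIhigh over KO_noVILI with bars of 1 SE, and blue squares WT_VILI over WT_noVILI as the authors' deposited table gives it, without bars. For Egr1 the circle stands at 5.01 and the square at 0.73.

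Immediate early transcription factors were the group with the highest share of called members, 15 higher of 17 tested in the EGR, NR4A and related list and 8 higher of 10 in the AP-1 and ATF list. Their median log2 fold changes were 2.59 and 2.99, beside -0.03 over all genes. Egr1, a zinc finger factor induced by growth factors and stretch, had 2956 CPM in KO_VILIhigh, 973 CPM in KO_VILIlow, 86.4 CPM in KO_noVILI, 635 CPM in WT_VILI and 382 CPM in WT_noVILI. It was highest in KO_VILIhigh and lowest in KO_noVILI, where it was also below WT_noVILI, and the knockout response was 5.01 ± 0.53 (adjusted p = 2.23e-18, summed test). Fos, the AP-1 subunit used as a marker of recent stimulation, had 908 CPM in KO_VILIhigh, 283 CPM in KO_VILIlow, 44.5 CPM in KO_noVILI, 236 CPM in WT_VILI and 182 CPM in WT_noVILI, with a knockout response of 4.32 ± 0.63. Its relative Fosb had 419.9 CPM in KO_VILIhigh, 109.6 CPM in KO_VILIlow, 10.5 CPM in KO_noVILI, 93.2 CPM in WT_VILI and 28.7 CPM in WT_noVILI, with a response of 5.34 ± 0.41. For these 3 genes the KO_noVILI level was the lowest of the 5 groups and the KO_VILIhigh level the highest. Atf3, a stress-induced repressor, changed by 5.22 ± 0.41, and Junb, an AP-1 partner, by 3.60 ± 0.38. Zfp36, which destabilises cytokine messenger RNAs, had 1344 CPM in KO_VILIhigh and 94.7 CPM in KO_noVILI and changed by 3.75 ± 0.34, and Maff, a small MAF factor, by 3.58 ± 0.29. The members of these 2 lists that were tested and not called were Nab2 at -0.26, Klf10 at 0.28, Batf at 0.20 and Jdp2 at 0.35.

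**Figure D3:**
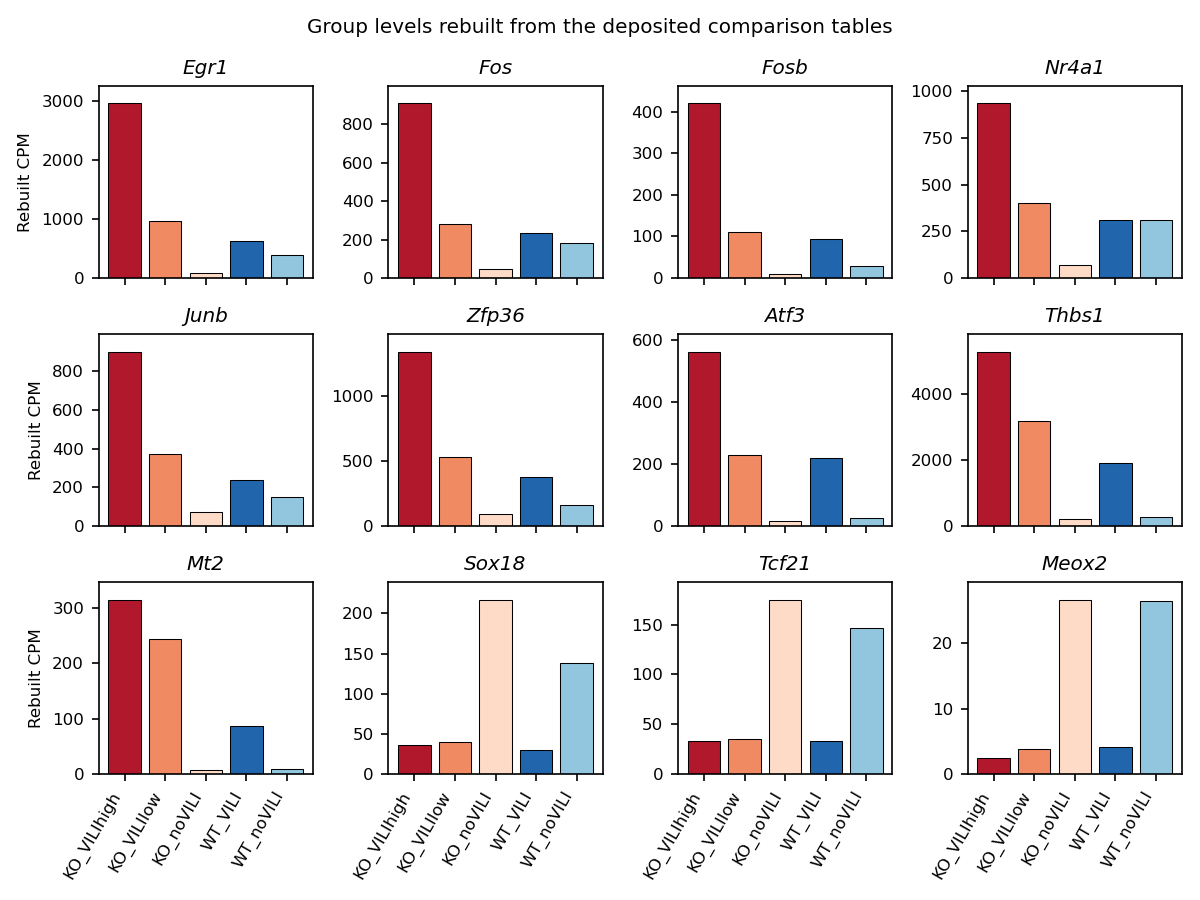
Rebuilt levels (y axis, CPM, from 0) of 12 genes in the 5 groups, with 1 bar per group and no error bars because no values per library were used. For Egr1, Fos, Fosb, Nr4a1, Junb, Zfp36, Atf3, Thbs1 and Mt2 the KO_VILIhigh bar is the tallest and the KO_noVILI bar the shortest. For Sox18, Tcf21 and Meox2 both unventilated bars stand above all ventilated bars.

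MAP kinase feedback genes, which switch the upstream kinases off again, were called higher in 10 of 16 cases with a median of 1.12. The dual specificity phosphatase genes Dusp5 and Dusp1 changed by 2.60 ± 0.53 and 2.21 ± 0.34, and Errfi1, an inhibitor of the EGF receptor, by 2.96 ± 0.30. Dusp6 (0.51) and Spred1 (0.25) were not called. Among KLF factors Klf6 (1.25) and Klf5 (1.17) were higher, and Klf2, the endothelial factor maintained by laminar flow, had 79.0 CPM in KO_VILIhigh and 198 CPM in KO_noVILI and fell by 1.29 ± 0.37 (SE).

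The RefSeq promoter table of GRCm38.p6 held 300-base windows, 250 bases before and 50 after an annotated start, for 9537 genes tested in 12196 windows. Of the genes called higher 232 had 314 windows, and of those called lower 124 had 144. The serum response element known as the CArG box was found on either strand in 4.14% of windows of genes called higher, in 0% of windows of genes called lower (0 of 144) and in 1.35% of all windows. The cyclic AMP response element TGACGTCA was in 5.73% of windows of genes called higher, 0.694% of those called lower and 2.89% of all windows. The AP-1 site TGANTCA was in 8.60%, 6.94% and 5.43% in the same order; it shares both ends with the cyclic AMP element and is shorter by 1 base, so no stretch matches both. The NF-kB motif was in 15%, 11.8% and 10.8%, and the heat shock element, 3 alternating GAA and TTC units spaced by NN, in 0%, 1.39% and 0.476%. These shares describe letters in windows and carry no test. Promoter stretches of called genes, chosen after the matches were seen, are given to show how the motifs sit, each as the 250 bases before the start, 5′ to 3′ on the gene's strand, with CArG matches in capitals in the first 3. Srf encodes serum response factor itself, with a log2 fold change of 1.73, and the other 2 belong to Dusp5 and Zfp36.
Srf, chr17:46556163-46556412, minus strand: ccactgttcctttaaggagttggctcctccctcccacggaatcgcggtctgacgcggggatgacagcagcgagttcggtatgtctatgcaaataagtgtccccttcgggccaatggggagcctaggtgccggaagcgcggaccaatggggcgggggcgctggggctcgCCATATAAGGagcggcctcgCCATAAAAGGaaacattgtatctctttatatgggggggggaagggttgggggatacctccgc
Dusp5, chr19:53528895-53529144, plus strand: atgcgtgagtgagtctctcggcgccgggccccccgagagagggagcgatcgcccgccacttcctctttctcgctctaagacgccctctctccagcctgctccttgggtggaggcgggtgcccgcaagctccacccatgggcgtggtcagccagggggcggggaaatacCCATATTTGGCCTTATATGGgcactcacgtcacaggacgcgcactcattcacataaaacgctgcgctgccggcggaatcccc
Zfp36, chr7:28379229-28379478, minus strand: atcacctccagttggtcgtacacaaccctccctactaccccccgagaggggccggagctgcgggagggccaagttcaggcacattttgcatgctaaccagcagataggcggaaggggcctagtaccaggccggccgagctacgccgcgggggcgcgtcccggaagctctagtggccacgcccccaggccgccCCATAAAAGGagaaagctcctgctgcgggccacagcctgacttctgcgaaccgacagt
The window of Dusp5 held 2 adjoining CArG matches and that of Srf 2 close together. The cyclic AMP element is capitalised in the next 3, those of Areg, Maff and Dusp1.
Areg, chr5:91139349-91139598, plus strand: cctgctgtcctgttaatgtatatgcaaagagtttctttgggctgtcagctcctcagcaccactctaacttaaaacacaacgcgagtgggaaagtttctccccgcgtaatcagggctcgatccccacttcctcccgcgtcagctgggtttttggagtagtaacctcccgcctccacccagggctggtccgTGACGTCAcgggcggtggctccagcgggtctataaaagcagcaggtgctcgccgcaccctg
Maff, chr15:79347270-79347519, plus strand: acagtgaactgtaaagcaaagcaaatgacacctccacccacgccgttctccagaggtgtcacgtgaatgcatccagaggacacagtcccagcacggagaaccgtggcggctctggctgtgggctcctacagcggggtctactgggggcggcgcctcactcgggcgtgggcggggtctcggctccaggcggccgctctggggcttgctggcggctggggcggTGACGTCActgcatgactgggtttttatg
Dusp1, chr17:26508473-26508722, minus strand: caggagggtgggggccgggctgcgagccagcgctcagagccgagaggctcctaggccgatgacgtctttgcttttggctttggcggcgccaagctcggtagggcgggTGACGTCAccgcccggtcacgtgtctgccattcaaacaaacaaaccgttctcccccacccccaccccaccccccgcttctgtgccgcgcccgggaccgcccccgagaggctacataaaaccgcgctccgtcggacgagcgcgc
In the promoter of Cxcl1, a neutrophil chemokine, the capitals are 2 overlapping matches to the NF-kB motif, 1 on each strand.
Cxcl1, chr5:90890995-90891244, plus strand: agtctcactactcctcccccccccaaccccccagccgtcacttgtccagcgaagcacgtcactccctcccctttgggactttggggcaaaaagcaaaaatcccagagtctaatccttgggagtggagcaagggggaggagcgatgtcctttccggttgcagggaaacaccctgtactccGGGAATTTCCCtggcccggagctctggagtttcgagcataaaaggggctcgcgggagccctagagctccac

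Some chemokine and cytokine genes were called higher, and others could not be tested because their unventilated levels lay below the abundance minimum. In the CXC list 2 of 12 tested genes were called higher and 1 lower, with a median of 0.50. Cxcl1 had 81.9 CPM in KO_VILIhigh, 25.4 CPM in KO_VILIlow, 4.99 CPM in KO_noVILI, 15.2 CPM in WT_VILI and 1.64 CPM in WT_noVILI, a knockout response of 4.19 ± 0.68 (adjusted p = 1.16e-07, summed test). Cxcr2, the neutrophil receptor for such chemokines, changed by 2.35 ± 0.61. Cxcl12, the stromal chemokine that retains progenitors, fell by 1.01. All 3 called CC chemokine genes, of 5 tested, were higher: Ccl22 by 2.91, Ccl11 by 2.73 and Ccl9 by 1.74. Of the IL-6 family, Lif had 109 CPM in KO_VILIhigh and 5.73 CPM in KO_noVILI (4.40 ± 0.42), and the feedback inhibitor Socs3 531 CPM in KO_VILIhigh and 46.9 CPM in KO_noVILI (3.51 ± 0.37). In the IL-1 and TNF list 5 of 12 were called higher, among them the receptor for TWEAK, Tnfrsf12a (2.96), the ubiquitin editor Tnfaip3 (2.24) and the decoy ligand Il1rn (2.20). NF-kB subunits and inhibitors were called higher in 4 of 12 cases, with a median of 1.15. Nfkbiz (2.61) and the inhibitor Nfkbia (1.34) were among them, while the subunit Nfkb1 stood at 0.04. Of 10 leukocyte adhesion genes tested, 0 were called by the summed test and 3 had an unadjusted p under 0.05, with Icam1 at 0.63 and Selp at 2.19.

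The abundance minimum removed several cytokine genes, among them Ccl2, Cxcl2, Il6 and Tnf. Off X and Y, 325 genes had a mean abundance of 1 or more in the KO_VILIhigh table but were not members; 304 of them fell below it in the table of unventilated lungs, and 60 reached 5 CPM in KO_VILIhigh. Ccl2, which attracts monocytes, stood at 66.6 CPM in KO_VILIhigh, 11.5 CPM in KO_VILIlow, 0.857 CPM in KO_noVILI, 9.65 CPM in WT_VILI and 0.685 CPM in WT_noVILI. The neutrophil chemokine Cxcl2 stood at 62.4 CPM in KO_VILIhigh, 22.0 CPM in KO_VILIlow, 1.59 CPM in KO_noVILI, 9.28 CPM in WT_VILI and 0.271 CPM in WT_noVILI. Il6, the inflammatory cytokine, stood at 61.4 CPM in KO_VILIhigh, 21.9 CPM in KO_VILIlow, 0.405 CPM in KO_noVILI, 14.8 CPM in WT_VILI and 0.590 CPM in WT_noVILI. Tnf, which activates NF-kB, stood at 34.1 CPM in KO_VILIhigh, 12.6 CPM in KO_VILIlow, 1.39 CPM in KO_noVILI, 9.79 CPM in WT_VILI and 1.01 CPM in WT_noVILI. For each of these 4 the KO_VILIhigh level was the highest of the 5 groups and both unventilated levels were under 2 CPM. Il1b was a member without a test, with 145 CPM in KO_VILIhigh, 70.0 CPM in KO_VILIlow, 14.7 CPM in KO_noVILI, 45.9 CPM in WT_VILI and 14.7 CPM in WT_noVILI.

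Neutrophil genes were called higher in 10 cases. Of 26 listed, 19 met the abundance minimum and 18 were tested, with a median of 2.71, and the summed level of the list was 1629.9 CPM in KO_VILIhigh and 377 CPM in KO_noVILI. The granule protease gene Mmp9 (3.00 ± 0.64), the alarmin S100a8 (3.03 ± 0.66), the growth factor receptor Csf3r (2.30 ± 0.43) and the activating receptor Trem1 (3.24 ± 0.62) were called, while the formyl peptide receptor Fpr1 (0.28) was not. In whole lung, fewer or more cells of a type and less or more RNA per cell cannot be told apart. Alveolar macrophage genes had 2 of 21 called higher, Cd14 (2.65) and Fabp4 (1.86), which fat also expresses, and a median of -0.18. Of the B cell list 1 of 15 was called, the antigen receptor chain Cd79a at 1.45, and of T and NK genes 1 of 15, the homing receptor Ccr7 at 1.50. Over all genes tested 2.51% were called higher. The B cell list had a median of 0.78, with 5 genes higher and 0 lower at an unadjusted p under 0.05. The T and NK list had a median of -0.36, with 1 gene higher and 1 lower at that p.

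Growth factor, stretch and clotting genes were called higher in part. In the EGF family the ligands Areg (162 CPM in KO_VILIhigh and 6.08 CPM in KO_noVILI) and Hbegf (328 CPM in KO_VILIhigh and 36.9 CPM in KO_noVILI) and the receptor Egfr (58.3 CPM in KO_VILIhigh and 23.2 CPM in KO_noVILI) were higher, by 4.77, 3.16 and 1.38. YAP and stretch targets had 8 of 20 called higher and 1 lower, Edn1, with a median of 0.67. Thbs1, the matrix protein thrombospondin-1, had 5306 CPM in KO_VILIhigh, 3189 CPM in KO_VILIlow, 206 CPM in KO_noVILI, 1909.7 CPM in WT_VILI and 266 CPM in WT_noVILI and a response of 4.58 ± 0.38. Its 3 ventilated levels all stood above both unventilated ones. Ptgs2, the inducible prostaglandin synthase, changed by 4.58 ± 0.33, and Cyr61, a secreted matricellular YAP target, had 1563 CPM in KO_VILIhigh and 140.0 CPM in KO_noVILI and changed by 3.37 ± 0.35. Tissue factor, F3, which starts coagulation, had 524 CPM in KO_VILIhigh and 36.6 CPM in KO_noVILI and changed by 3.78 ± 0.34. In the prostaglandin list Hpgd, the enzyme that inactivates prostaglandins, fell by 1.61 ± 0.31 (SE), to 189.9 CPM in KO_VILIhigh, against 551 CPM in KO_noVILI.

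Oxidative stress and hormone-responsive genes were called higher in most cases tested. NRF2 and metallothionein genes were called higher in 9 of 14 cases, with a median of 1.85, and they include the cystine importer Slc7a11 (3.99 ± 0.52), the sulfiredoxin gene Srxn1 (3.51 ± 0.33) and Mt1 (3.86 ± 0.46). Glucocorticoid-responsive genes were called higher in 10 of 15 cases with a median of 1.56. The list shares members with other lists, among them Mt2, Dusp1, Errfi1, Cdkn1a, Nfkbia and Sgk1. Of p53 targets 7 of 14 were higher, among them the cell cycle inhibitor Cdkn1a (2.85) and the kinase Plk3 (3.14). Bbc3 (-0.02), Pmaip1 (-0.01) and Bax (0.20), which promote cell death, were not called. Pmaip1 stood at 28.5 CPM in KO_VILIhigh and 29.7 CPM in KO_noVILI, but at 39.3 CPM in WT_VILI and 14.0 CPM in WT_noVILI. Hypoxia and glycolysis genes were higher in 3 of 13 cases, the peptide hormone gene Adm (3.07), hexokinase-2 Hk2 (2.56) and the glucose transporter Slc2a1 (2.12), with Ldha at 0.11. In the stress response of the endoplasmic reticulum Ppp1r15a (2.06), Atf4 (1.13) and Sesn2 (1.09) were called of 18 tested, and the chaperone Hspa5 stood at 0.42. Heat shock chaperones had a median of -0.40, with Bag3 (0.95) called higher and Chordc1 (-1.73) called lower of 17 tested. Clock genes were called in both directions, 3 higher and 4 lower of 18: Nfil3 rose by 3.33, while Per3 fell by 1.97 and Hlf by 1.75.

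Members of the interferon-inducible and endothelial lists were called in the downward direction only. Apold1, described above as a gene of endothelium, is outside the endothelial list and was called higher, at 5.36. Of 24 interferon genes 8 were called lower and 0 higher by the summed test, with a median of -0.94 and 11 lower and 0 higher at an unadjusted p under 0.05. Iigp1, an immunity-related GTPase, had 9.55 CPM in KO_VILIhigh, 8.48 CPM in KO_VILIlow, 51.1 CPM in KO_noVILI, 12.1 CPM in WT_VILI and 27.9 CPM in WT_noVILI and fell by 2.33 ± 0.52 (SE). Its relative Irgm2 fell by 2.06, the guanylate-binding protein gene Gbp3 by 1.45 and the signal transducer Stat2 by 1.23. Of 32 endothelial genes 7 were called lower and 0 higher by the summed test, with a median of -0.57 and 16 lower and 0 higher at an unadjusted p under 0.05. Sox18 had 35.8 CPM in KO_VILIhigh, 39.4 CPM in KO_VILIlow, 217 CPM in KO_noVILI, 29.6 CPM in WT_VILI and 139 CPM in WT_noVILI, and the Notch target Hey1 fell by 2.14. The arterial connexins Gja5 and Gja4 fell by 1.98 and 1.57. The pan-endothelial markers Cdh5 (-0.15) and Pecam1 (-0.26) were not called.

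Epithelial genes were counted in 6 lists, beside the 3.90% called over all genes tested. Alveolar type 2 genes had 0 of 21 called by the summed test (0 higher and 3 lower at an unadjusted p under 0.05) and a median of -0.21, with Sftpb at -0.04. Alveolar type 1 genes had 0 of 20 called by the summed test (2 higher at an unadjusted p under 0.05) and a median of 0.25, with Ager at 0.11. Tight junction genes were called higher in 2 of 25 cases, the claudins Cldn23 (2.71 ± 0.54) and Cldn7 (1.31 ± 0.30). Cldn3 and Cldn18, the other main alveolar claudins, stood at 0.59 ± 0.30 and 0.21 ± 0.38 and were not called (adjusted p = 0.414 and 0.99, summed test). Of sodium and water transport genes 1 of 14 was called, the kinase Sgk1 at 1.86, with the channel subunit Scnn1a at 0.29. Sgk1 is also counted in the glucocorticoid-responsive list. Club and secretory genes were called higher in 5 of 16 cases with a median of 0.86, among them Bpifb1 (65.6 CPM in KO_VILIhigh and 7.45 CPM in KO_noVILI) and the mucin Muc5b (137 CPM in KO_VILIhigh and 17.1 CPM in KO_noVILI). Another of the 5, Ltf (2.74 ± 0.57), is also in the neutrophil list, and its cell source was not tested. Among ciliated cell genes 1 of 21 was called, the master factor Foxj1, which fell by 1.43 beside a list median of 0.41. The 2 lists kept as a check of RNA composition, ribosomal proteins and the respiratory chain, had medians of -0.03 and 0.10, with 0 of 34 and 0 of 25 called by the summed test and 1 and 0 genes at an unadjusted p under 0.05.

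**Figure D4:**
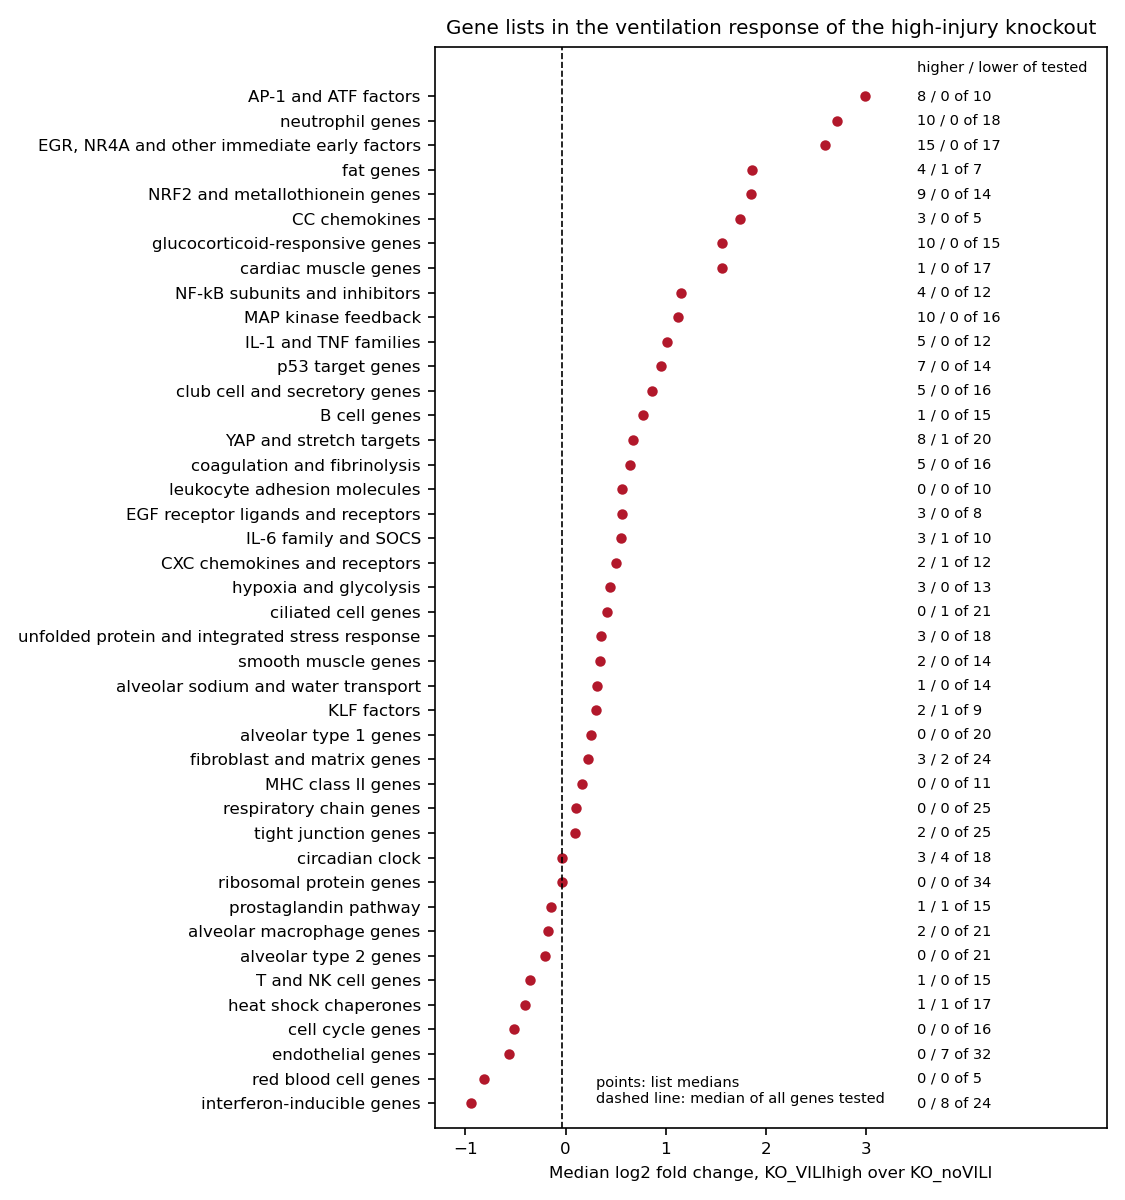
Median log2 fold change of KO_VILIhigh over KO_noVILI (x axis) over the tested members of the gene lists shown, with the number called higher and lower of those tested at the right. The dashed line is the median of all 12116 genes tested, -0.03. The medians run from -0.94 for interferon-inducible genes to 2.99 for AP-1 and ATF factors.

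Markers of other tissues were counted in 3 lists, with several called members in the fat list alone. Cardiac muscle genes, expressed in the heart and in the walls of pulmonary veins, had a median of 1.56 and a summed level of 1102 CPM in KO_VILIhigh and 366 CPM in KO_noVILI. Of 17 tested, 1 was called higher, Actc1 (1.56 ± 0.43), and 15 had an unadjusted p under 0.05. Fat genes were called higher in 4 of 7 cases, including Adipoq (13.2 CPM in KO_VILIhigh and 2.27 CPM in KO_noVILI) and Plin1 (10.6 CPM in KO_VILIhigh and 1.37 CPM in KO_noVILI), and lower in 1, Adrb3 (-2.69). Red blood cell genes had a summed level of 3180.3 CPM in KO_VILIhigh and 6376 CPM in KO_noVILI, with 0 of 5 called by the summed test and 0 at an unadjusted p under 0.05. The part of these tissues in the other results was not tested.

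The knockout response was set against the wild type response by subtracting WT_VILI over WT_noVILI from it, a difference in which no group cancels. The difference could be tested in 12358 genes, and 201 (1.63%) were called, 154 (1.25%) with a higher and 47 (0.380%) with a lower knockout response. The 6 largest differences upward were in Bpifa1, Egr1, Fos, Nr4a1, Egr3 and Fosb. The difference was 4.28 ± 0.47 for Egr1, 3.95 ± 0.52 for Fos and 3.64 ± 0.38 for Fosb. Nr4a1, an orphan nuclear receptor induced within minutes, had 934 CPM in KO_VILIhigh, 403 CPM in KO_VILIlow, 68.9 CPM in KO_noVILI, 308 CPM in WT_VILI and 312 CPM in WT_noVILI. It was not called between ventilated and unventilated wild type lungs, at -0.02 in the authors' deposited table (adjusted p = 1, edgeR), and the difference of responses was 3.72 ± 0.47 (adjusted p = 5.25e-12, summed test). Egr3, a relative of Egr1, had 73.9 CPM in KO_VILIhigh, 37.4 CPM in KO_VILIlow, 5.35 CPM in KO_noVILI, 21.6 CPM in WT_VILI and 18.0 CPM in WT_noVILI, with a difference of 3.64 ± 0.38. In the lists, 13 of 17 EGR, NR4A and related genes tested and 6 of 10 AP-1 and ATF genes were called with a higher knockout response. KO_noVILI was below WT_noVILI and KO_VILIhigh above WT_VILI for Egr1, Fos, Fosb, Nr4a1 and Egr3 alike.

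YAP and stretch targets were called with a higher knockout response in 7 of 20 cases and coagulation genes in 5 of 16, with Cyr61 at 2.97 ± 0.32 and F3 at 1.17 ± 0.31. Cardiac muscle genes were called in 12 of 17 cases, with summed levels of 649 CPM in WT_VILI and 959 CPM in WT_noVILI beside those above, and smooth muscle, fat and B cell genes in 4 cases each, of 14, 7 and 15 tested. In the neutrophil list 0 genes were called by the summed test, 6 higher and 0 lower at an unadjusted p under 0.05, and its median difference was 0.71. In the interferon list 0 genes were called by the summed test, 0 higher and 3 lower at an unadjusted p under 0.05, with a median of -0.34. Ribosomal protein and respiratory chain genes had median differences of 0.29 and 0.23, beside -0.03 over all genes tested. Of them 33 of 34 and 22 of 25 were positive, and 0 were called by the summed test. Klf2 had a difference of 1.13 ± 0.30, since its wild type fall was larger, -2.42 in the authors' deposited table. Without predicted genes, the 6 largest called downward differences were those of Pianp, Cldn4, Cntn4, Zfp429, Ccl5 and Gpr179. The T cell chemokine Ccl5 had 10.4 CPM in KO_VILIhigh, 6.27 CPM in KO_VILIlow, 53.8 CPM in KO_noVILI, 10.7 CPM in WT_VILI and 8.58 CPM in WT_noVILI, so that it was high in KO_noVILI alone, and its difference was -2.61 ± 0.72. Hpgd had a difference of -1.42 ± 0.27, and Ptgs2 one of 1.32 ± 0.28. That of Pmaip1 was called at -1.49 ± 0.36, beside a wild type rise of 1.49 in the authors' deposited table.

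Between KO_VILIhigh and KO_VILIlow, both measured against WT_VILI, 17 of 12101 genes were called (0.140%), 15 higher (0.124%) and 2 lower (0.0165%) in KO_VILIhigh, and 268 had an unadjusted p under 0.05. Of the 15, 10 belong to the 2 immediate early lists: Fosb differed by 1.95 ± 0.32 and Fos by 1.70 ± 0.31. Egr1 differed by 1.59 ± 0.35, and Zfp36, Atf3, Junb, Ier2, Nr4a1, Btg2 and Ier5 were called as well. Cxcl1 differed by 1.69 ± 0.41 and Sfn by 1.22 ± 0.28. The B cell gene Fcrla differed by 2.67 ± 0.63, and the clock repressor Nr1d1 was also called higher. The B cell list had a median difference of 1.77, beside 0.89 and 1.06 in the EGR and AP-1 lists. Of its 14 tested genes 13 were higher and 0 lower at an unadjusted p under 0.05. Its summed level was 176 CPM in KO_VILIhigh, 61.7 CPM in KO_VILIlow, 105 CPM in KO_noVILI, 194 CPM in WT_VILI and 294 CPM in WT_noVILI. The KO_VILIhigh sum was thus below both wild type sums, and KO_VILIlow had the lowest. The part of B cells in this comparison was not tested. The 2 lower genes were Angptl7, a secreted angiopoietin-like protein, at -2.34 ± 0.48, and Per3 at -1.18 ± 0.29. In the authors' deposited table KO_VILIhigh over WT_VILI was 2.13 for Egr1, and KO_VILIlow over WT_VILI was 0.54. Mt2 and Thbs1 were not called between the injury groups, with differences of 0.37 ± 0.46 and 0.69 ± 0.29. Called genes named beyond the 6 largest each way were chosen after their values were seen.

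**Figure D5:**
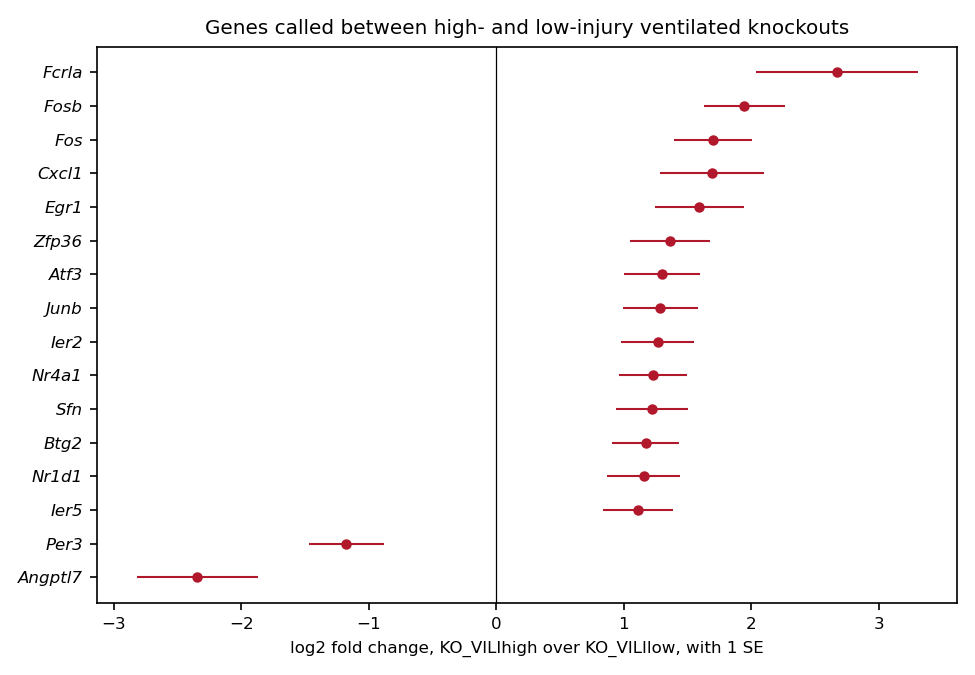
Log2 fold change of KO_VILIhigh over KO_VILIlow (x axis) with bars of 1 SE for the called genes shown. The higher ones run from Ier5 to Fcrla at 2.67, and the 2 lower ones are Per3 at -1.18 and Angptl7 at -2.34.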

How the data were processed

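The analysis started from the authors' 4 deposited comparison tables, each with 21590 genes and with 0 columns for single libraries. Per the submitters' processing notes, the authors used Bowtie 1.1.2, the mouse build mm9, R 3.0.1 and edgeR, whose version is not given in the sources used here. Each deposited table holds logFC, logCPM, p-value and FDR columns per the file headers; logFC and logCPM were read as log2 values. The deposited p-value is the authors' edgeR value for each gene. The counting method, filter and strand setting are not given in the sources used here, so genes with near-identical copies or antisense partners are uncertain. Depth is unknown.

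The labels list WT_noVILI under every table. The level of the comparison group rebuilt from the KO_VILIhigh table differed from WT_VILI by a median of 0.0449 log2 over 13305 genes (90.9% within 0.1), and from WT_noVILI by 0.226 (24.6%), so that table was read against WT_VILI, as was the KO_VILIlow table (0.0625 and 0.229).

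Log2 fold changes were added, each SE was taken as the fold's size over the normal quantile belonging to the deposited p, and two-sided normal p-values were adjusted by Benjamini-Hochberg over all genes tested. Cancelled groups still add variance, which makes the response test and that of KO_VILIhigh against KO_VILIlow conservative. The approximation was used because no count test can be run without values per library. It was run on simulated data alone, which cannot show how well it holds for the deposited p-values. No conclusion about its error rate in these data was drawn from that run. The alternatives tried were other abundance minimums, centring, a raised SE, a stricter threshold, X and Y kept, other variances, genes with a p of 1 tested (added after seeing the data), another reading of the table and rebuilt levels.

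The genes compared, the 43 lists with 800 members (7 not found) and the tests were chosen with earlier results of these data known, so no list is independent evidence of its direction. Named genes were 11 chosen by interest (Cldn4, Cldn3, Cldn18, Egr1, Fos, Il6, Tnf, Il1b, Cxcl1, Cxcl2 and Ccl2), the 10 largest called rises and falls without predicted genes, up to 5 called members of smallest p per list and members given as not called, the 6 largest called differences each way against the wild type response and against KO_VILIlow, also without predicted genes, and up to 12 genes called in none of the deposited tables. Dates replaced 27 symbols, so genes were matched by Entrez identifier to a GRCm38.p6 gene table (21534 matched), used for names, chromosomes and spans; 17 members had no chromosome. The results of some genes are not reported here. Promoter sequences and coordinates are those of RefSeq on GRCm38.p6, not the authors' build. The software was Python 3.11.15 with scipy 1.17.1, numpy 2.4.6, matplotlib 3.10.9 and pandas 2.3.3.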

Additional observations from a re-analysis of the deposited data

Results flagged for a closer look

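The difference between the response of high-injury knockout lungs and that of wild type lungs was called in 154 genes with a higher and 47 with a lower knockout response. Upward it was 6.76 for Bpifa1, 4.28 for Egr1, 3.95 for Fos, 3.72 for Nr4a1, 3.64 for Fosb and 3.64 for Egr3 on the log2 scale. Downward it was -4.67 for Pianp, -3.58 for Cntn4, -3.01 for Zfp429, -2.61 for Ccl5 and -2.23 for Gpr179. Cldn4 had a fitted value of -4.10, which combines knockout levels near the lower limit of the estimates with the wild type rise and is not a bound. Pianp stood at 1.07 CPM in KO_VILIhigh, 18.2 CPM in KO_VILIlow, 31.5 CPM in KO_noVILI, 9.69 CPM in WT_VILI and 11.1 CPM in WT_noVILI, and Zfp429 had 0.246 CPM in KO_VILIhigh, where its fold is a fitted value.

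The difference between high-injury and low-injury ventilated knockout lungs was called in 15 genes higher and 2 lower. It was 2.67 for Fcrla, 1.95 for Fosb, 1.70 for Fos, 1.69 for Cxcl1 and 1.59 for Egr1, and -1.18 for Per3 and -2.34 for Angptl7. Fcrla, a B cell gene, stood at 8.86 CPM in KO_VILIhigh, 1.40 CPM in KO_VILIlow, 3.70 CPM in KO_noVILI, 6.98 CPM in WT_VILI and 11.1 CPM in WT_noVILI. Angptl7 stood at 6.14 CPM in KO_VILIhigh, 30.9 CPM in KO_VILIlow, 4.86 CPM in KO_noVILI, 31.8 CPM in WT_VILI and 5.59 CPM in WT_noVILI.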

How the results depend on the processing

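No paired analysis was possible because the tables carry no values per library, and no library could be left out for the same reason. With the variance of the cancelled groups left out, which assumes that each group is estimated alike in every table, the response counted 997 genes higher and 1085 lower, including all 304 and 168, and high against low injury 101 higher and 18 lower. Read against WT_noVILI, the KO_VILIhigh table gave 154 higher and 47 lower, since the sum then equals the difference of responses, and it turned the direction of Foxj1 (0.26), Marco (0.43), Ear2 (0.14), Chi3l3 (0.98), Ngp (-1.26), Hbb-bs (0.74), Adrb3 (0.20), Klf2 (1.13), Dusp8 (-0.18), Sesn2 (-0.57) and Angptl7 (-2.07). At an adjusted p of 0.01 the response counted 226 higher and 82 lower, the difference from wild type 89 higher and 20 lower, and high against low injury 2 higher and 1 lower. High against low injury counted 0 genes lower at a mean abundance of at least 3, and 1 lower both with centring on the median and with a raised SE. Centring on the median of all genes tested moved the response to 325 higher and 150 lower. All other alternatives run left these counts within 1.5 times. The design text gives 2 libraries per group and the tables give no depth, so a gene that was not called may still differ: the median SE of 0.37 is large beside a log2 change of 1.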

Other observations

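Fibroblast, matrix and smooth muscle genes showed mixed changes between KO_VILIhigh and KO_noVILI. Of 24 fibroblast and matrix genes tested 3 were called higher and 2 lower, Meox2 and Tcf21, with a median of 0.22. The 3 were the protease genes Mmp9 (3.00 ± 0.64) and Adamts1 (1.95 ± 0.34) and elastin, Eln (1.20 ± 0.34). Mmp9 is also in the neutrophil list, and its cell source was not tested. The collagen genes Col1a1 (0.52) and Col3a1 (0.09) were not called. Among 14 smooth muscle genes the contractile genes Tagln (1.01 ± 0.29) and Acta2 (0.99 ± 0.30) were called higher, and Myh11 stood at 0.29.

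Of 16 cell cycle genes 0 were called by the summed test, 2 were lower at an unadjusted p under 0.05, and the median was -0.52, with Top2a at -1.01. Of 11 class II antigen presentation genes 0 were called by the summed test, 2 were higher and 1 lower at an unadjusted p under 0.05, and the median was 0.17, with Cd74 at 0.00. Genes called higher had a median gene span of 12.9 kb in the GRCm38.p6 gene table and genes called lower one of 17.1 kb, beside 24.3 kb over all genes tested with a span.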
